A study of Mus musculus with 6 samples.

Results

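The genes of glycolysis and of the hypoxia response were followed in tumour epithelial cells of mouse skin papillomas with and without Sox2. The set holds 38 genes taken from a fixed list of symbols, of 13222 genes tested in all. It was divided by role into 18 glycolytic enzymes (with the regulatory enzyme gene Pfkfb3), 4 transporter genes with the kinase gene Pdk1, 4 genes of hypoxia-inducible factor (HIF) subunits and the hydroxylases that act on them, and 11 hypoxia targets. Each gene was read by 1 Affymetrix probe set annotated to that symbol alone, the one with the highest mean over the 6 arrays. Of the 38 genes, 34 were tested: 15 enzymes, all 4 transporters and Pdk1, all 4 HIF and hydroxylase genes, and 10 targets. Gpi1 and Eno1 had no named probe set, those of Bnip3l were shared with a pseudogene, and Eno2 (3.999, 4.21 and 4.13 in Sox2cKO, against 4.40, 4.10 and 3.81 in CTRL) lay below the intensity filter.

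Glycolysis splits glucose into pyruvate in the cytosol, and lactate dehydrogenase turns pyruvate into lactate, which leaves the cell through monocarboxylate transporters. The transcription factor HIF is held low in oxygen because prolyl hydroxylases mark its alpha subunit for destruction. When oxygen falls, the alpha subunit accumulates, pairs with ARNT and raises genes for glucose uptake, glycolysis, pH control, mitophagy and vessel growth. Since that control acts mainly on the protein, the mRNA of the alpha subunit does not by itself read HIF activity. Keratinocytes of skin and its tumours are known for active glycolysis and for a share of HIF signalling even in normal skin, which is poorly oxygenated.

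The Sox2cKO group held 3 arrays of cells from K14CREER:SOX2fl/fl mice, in which a tamoxifen-activated Cre under the keratin 14 promoter deletes floxed Sox2. The CTRL group held 3 arrays from control mice, whose alleles the labels do not name. Both groups carried chemically induced benign papillomas and received tamoxifen for 1 week. The cells were sorted as Epcam+ alpha6+ and negative for CD45, CD31 and CD140a, and whether tumours or mice were pooled is not given in the sources used here. Deletion is limited to cells that express the keratin 14 promoter, and the cells that escaped it were not counted here. Nothing but the design text's mention of 3 biological experiments describes the replicates, so p-values measure the spread between these 6 arrays. Ages and strains are not given in the labels.

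Sox2 read 4.07, 4.63 and 3.23 in Sox2cKO, against 7.19, 8.31 and 8.18 in CTRL, on the log2 scale used for every level below. All 3 Sox2cKO values lay below their array's 40th percentile (4.90 to 4.92), and no size is given for a difference from them. The gene did not pass the test over all genes (limma adjusted p 0.316). The basal keratins Krt5 (13.39 ± 0.06 in Sox2cKO and 13.39 ± 0.04 in CTRL) and Krt14 (14.10 ± 0.05 in Sox2cKO and 14.04 ± 0.10 in CTRL, SD, n = 3 each) were high in both groups. Markers of fibroblasts and pericytes read higher in Sox2cKO in 17 of 17 tested genes of 18 listed (Fbn1 was below the filter), with a summed linear signal of 11235 to 25809.9 in Sox2cKO and 5668 to 9488 in CTRL. Suprabasal keratinocyte markers read higher in 10 of 10 tested genes of 11 listed (Flg was below the filter), with sums of 23375 to 40843 in Sox2cKO and 22002.5 to 38260.4 in CTRL. Leukocyte markers summed to 1036 to 1393 in Sox2cKO and 1173 to 1306 in CTRL, with 9 of 13 tested higher, and of 10 endothelial markers 5, among them Pecam1 and Cdh5, were below the filter. Pdgfra, the gene of the sorted-out CD140a, averaged 6.32 ± 0.89 in Sox2cKO and 5.30 ± 0.24 in CTRL, and Itga6, of the sorted alpha6, averaged 12.26 ± 0.19 in Sox2cKO and 12.17 ± 0.07 in CTRL. Epcam, the other sort marker, read 11.24, 10.72 and 10.57 in Sox2cKO, against 11.07, 11.42 and 11.43 in CTRL, a difference of -0.46 that did not pass (limma adjusted p 0.999). Sebocyte markers read lower in Sox2cKO in 6 of 7 tested genes (median difference -0.40), with sums of 6256 to 8643 in Sox2cKO and 8127 to 11363 in CTRL. Basal keratinocyte markers read higher in 4 of 9, melanocyte markers in 4 of 7 and red cell and muscle markers in 2 of 5 tested genes. The part of these cell types in the results below was not tested. Xist was high in CTRL replicates 2 and 3 and low in the other arrays, so 2 arrays of 1 group had a female pattern. In bulk RNA, fewer cells of a type and less RNA per cell cannot be told apart. Differences between 3' and 5' control probe sets of Gapdh lay between -0.03 and 0.14 in Sox2cKO and between 0.00 and 0.12 in CTRL. Those of beta-actin were larger, 0.61 to 0.82 in Sox2cKO and 0.56 to 0.79 in CTRL. The middle control probe set of 18S RNA read 10.58, 11.60 and 12.61 in Sox2cKO, against 11.60, 11.10 and 11.88 in CTRL. Its part in the results below was not tested.

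None of the 34 genes passed the test between Sox2cKO and CTRL (limma, adjusted p under 0.05 over all genes; lowest adjusted p 0.999), and 0 of 13222 genes passed (0%). Without CTRL replicate 1 the count over all genes was 5 (Sox2, Xist, Eif2s3y, Kdm5d and Uty), with no member among them. With that array left out, every control had high Xist and every Sox2cKO array low Xist, so group and Xist pattern cannot be told apart there. At an unadjusted limma p under 0.05 there were 2 of the 34, Gapdhs and Pdk1, against 354 of all genes (2.68%). The same 2 genes had groups that did not overlap, which is 5.88% of the members and 5.85% of all genes. Both were higher in Sox2cKO, as were 2.73% of all genes without overlap, and none of the members was lower without overlap, against 3.12% of all genes. A difference of at least 1.5-fold was seen in 2 members, Gapdhs and Adm, against 2.69% of all genes. These shares were near the background or rest on 2 genes. The median difference of the 34 (Sox2cKO minus CTRL, log2) was -0.03, with 11 higher and 23 lower, and the median over all genes was near 0 with 50.6% higher.

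The precision of the comparison differed between genes. For 19 of the 34 the 95% interval of the difference lay wholly within 1.5-fold in either direction, against 68.8% of all genes. Among them were 11 of 15 enzymes but only 2 of 10 hypoxia targets. These intervals leave the replicate numbers aside. In a fit that blocks on them the standard error of Ndrg1 was 0.10 in place of 0.27, while that of Gapdhs was 0.214 in place of 0.207. The within-group standard deviation had a median of 0.14 in the enzymes, 0.40 in the targets and 0.19 over all genes, and the probe sets' median signal was 10.68, 8.73 and 7.75 in the same order. The part of signal strength in the spread was not tested.

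**Figure D1:**
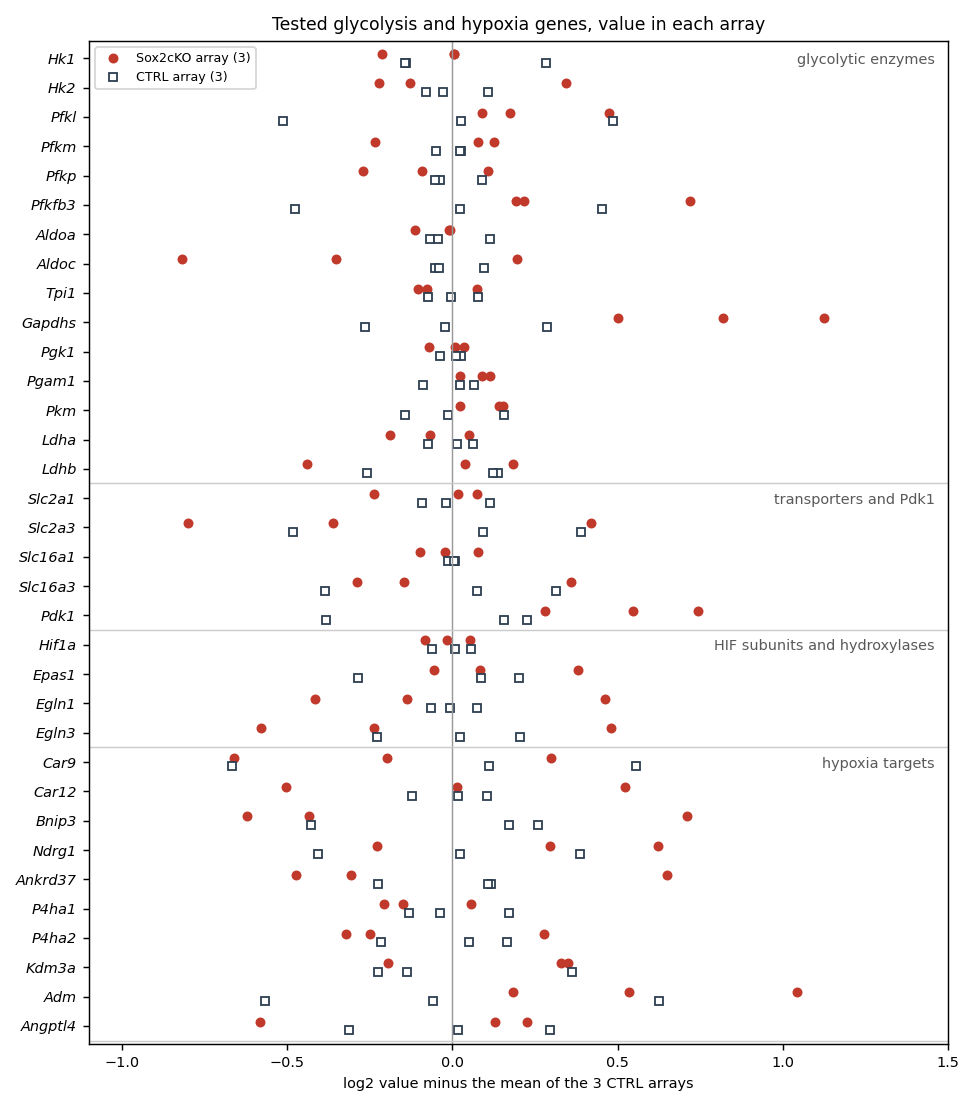
Log2 value of each tested gene in each array minus the mean of the 3 CTRL arrays, with Sox2cKO arrays as filled circles and CTRL arrays as open squares, 3 of each. Circles and squares are fully separated for Gapdhs and Pdk1 and interleave for the other 32 genes.

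Along the enzymes of glycolysis the groups overlapped, apart from Gapdhs. Of the other 14 enzymes tested, 4 were higher and 10 lower, the differences lay between -0.32 and 0.38, and 10 were smaller than 0.1 in size. The 95% intervals of Pfkl (-0.35 to 0.84), Pfkfb3 (-0.23 to 0.98) and Aldoc (-0.90 to 0.25) were too wide to bound a 1.5-fold change. Hexokinase traps glucose as glucose 6-phosphate. Hk2, the inducible form, read 11.65, 11.08 and 11.18 in Sox2cKO, against 11.41, 11.23 and 11.28 in CTRL. The difference was near 0 with a 95% interval of -0.41 to 0.40, and the Sox2cKO arrays spanned the whole CTRL range. Hk1, the form of most tissues, averaged 9.55 ± 0.13 in Sox2cKO and 9.62 ± 0.25 in CTRL (SD, n = 3 each).

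Phosphofructokinase commits the sugar to glycolysis, and its liver, muscle and platelet subunits are encoded by Pfkl, Pfkm and Pfkp. Pfkl read 9.18, 9.48 and 9.09 in Sox2cKO, against 9.03, 9.49 and 8.49 in CTRL, a difference of 0.25 with a standard error of 0.25. One CTRL array was lower than the rest and another the highest of all 6. Pfkm differed by -0.01 and Pfkp by -0.09. Pfkfb3 makes fructose 2,6-bisphosphate, the strongest activator of phosphofructokinase. It read 7.73, 7.23 and 7.20 in Sox2cKO, against 7.46, 6.53 and 7.03 in CTRL, a difference of 0.38 with a standard error of 0.26 (limma adjusted p 0.999). Its groups overlapped through CTRL replicate 1, but in each of the 3 pairs of the same replicate number the Sox2cKO array was the higher one. The other tested probe set of Pfkfb3 was dimmer and went the other way in each pair. It read 5.33, 5.19 and 5.27 in Sox2cKO, against 5.34, 5.26 and 5.37 in CTRL, a difference of -0.06. The mean of the probe sets differed by 0.16. For the chosen probe set, leaving out CTRL replicate 2 gave 0.14. Leaving out CTRL replicate 1 gave 0.60, with only controls of high Xist left. A fit with an Xist covariate, which sets Sox2cKO against CTRL replicate 1 alone, gave -0.08.

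Aldolase and triosephosphate isomerase give glyceraldehyde 3-phosphate. Aldoa, the muscle-type aldolase gene, differed by -0.04 and Tpi1 by -0.04. The brain-type aldolase gene Aldoc read 7.44, 7.99 and 6.97 in Sox2cKO, against 7.74, 7.88 and 7.75 in CTRL. The difference was -0.32 with a standard error of 0.24, and the Sox2cKO arrays lay on both sides of a narrow CTRL group. It was -0.08 without Sox2cKO replicate 3 and -0.59 without Sox2cKO replicate 2.

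Gapdhs was the member with the smallest unadjusted p. It encodes the sperm-type glyceraldehyde 3-phosphate dehydrogenase, known as an enzyme of the sperm tail. It read 7.01, 7.32 and 7.63 in Sox2cKO, against 6.79, 6.24 and 6.48 in CTRL. All 3 Sox2cKO arrays exceeded all 3 CTRL arrays, although the nearest pair lay 0.22 apart, both of replicate number 1. The difference was 0.82 with a standard error of 0.21 (1.76-fold; limma unadjusted p 0.00517, adjusted p 0.999), and an exact permutation test, two-sided, gave p = 0.1, which no 3 against 3 comparison can go below and which leaves the pairs out. Gapdhs had 1 probe set on the array. Gapdh, the somatic form and not in the set, was read by an Affymetrix control probe set at 12.96, 12.89 and 13.03 in Sox2cKO, against 12.92, 12.96 and 12.86 in CTRL. Its 3 control probe sets differed by 0.03 to 0.04, and the groups overlapped in each case. The other Gapdh probe sets of the array are annotated to pseudogenes as well and were not used.

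The later steps of the pathway yield ATP. Pgk1, the X-linked gene of phosphoglycerate kinase, read 12.44, 12.52 and 12.55 in Sox2cKO, against 12.54, 12.47 and 12.52 in CTRL. Its difference was -0.01 with a 95% interval of -0.26 to 0.24, the narrowest interval among the 34 members, and its within-group standard deviation was 0.05. Pgam1, of phosphoglycerate mutase, differed by 0.08. Pkm, the pyruvate kinase gene whose splice forms the probe set was not checked to separate, read 11.83, 11.70 and 11.81 in Sox2cKO, against 11.83, 11.66 and 11.53 in CTRL. Its difference was 0.11 with a standard error of 0.13. Ldha makes lactate from pyruvate and read 12.71, 12.83 and 12.95 in Sox2cKO, against 12.82, 12.96 and 12.91 in CTRL. The 2 groups shared most of their range, with a difference of -0.07 (95% interval -0.35 to 0.21). Ldhb, the heart-type subunit gene, averaged 9.16 ± 0.33 in Sox2cKO and 9.23 ± 0.23 in CTRL.

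**Figure D2:**
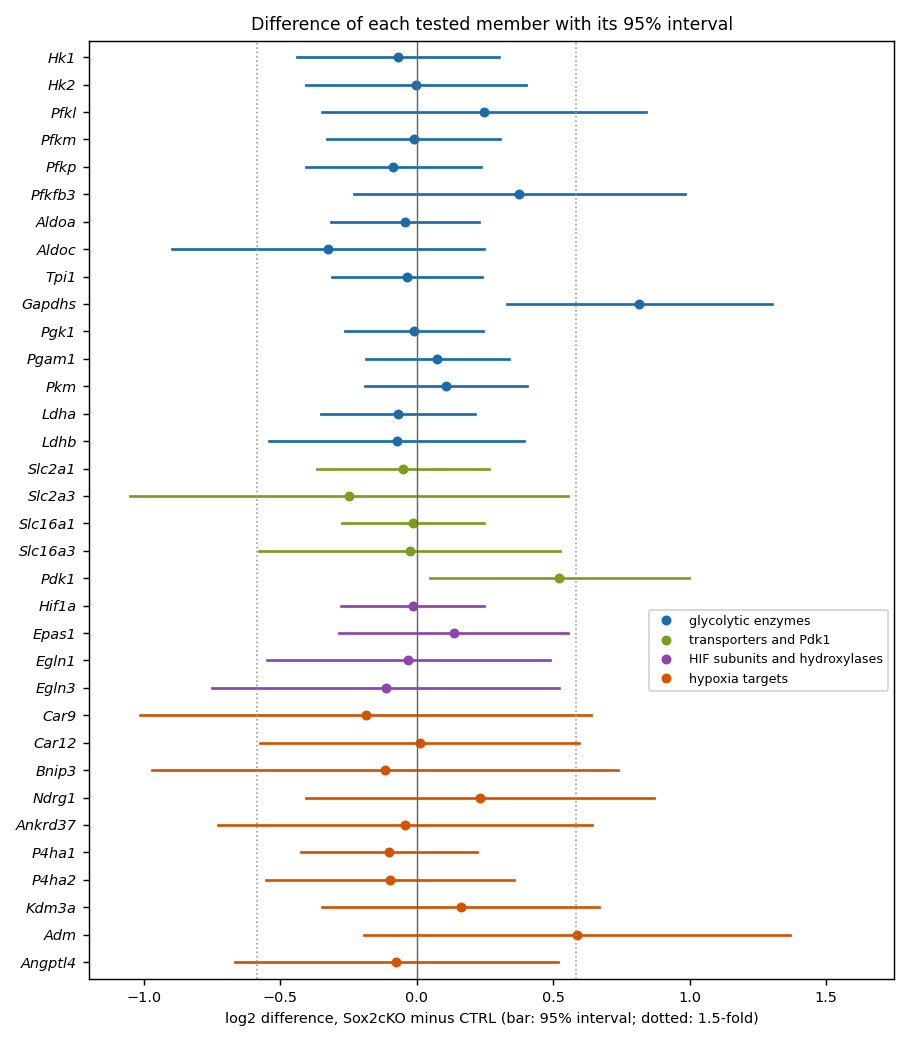
Log2 difference (Sox2cKO minus CTRL) of each tested gene as a point, with its 95% interval as a bar, coloured by role; dotted lines mark 1.5-fold. The intervals of Gapdhs and Pdk1 lie above 0 and those of the other genes include 0, with the widest bars among hypoxia targets and Slc2a3.

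The glucose and lactate transporters did not differ beyond their spread. Slc2a1 encodes GLUT1, the main glucose transporter of keratinocytes, and read 12.49, 12.80 and 12.74 in Sox2cKO, against 12.63, 12.84 and 12.70 in CTRL. Its difference was -0.05 with a 95% interval of -0.36 to 0.26. Slc2a3, of the high-affinity transporter GLUT3, read 6.96, 5.74 and 6.18 in Sox2cKO, against 6.63, 6.06 and 6.93 in CTRL, and its interval reached from -1.05 to 0.56. Its values spread over more than 1 log2 unit in Sox2cKO. Slc16a1, the lactate transporter gene MCT1, differed by -0.01 (11.80 ± 0.09 in Sox2cKO and 11.81 ± 0.01 in CTRL), and Slc16a3, the exporter MCT4, by -0.03.

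Pdk1 encodes a kinase that inhibits pyruvate dehydrogenase and so keeps pyruvate out of mitochondria. It read 9.89, 9.62 and 10.09 in Sox2cKO, against 9.57, 9.50 and 8.96 in CTRL. The lowest Sox2cKO array exceeded the highest CTRL array by a small margin, and CTRL replicate 3 stood below the other controls. The difference was 0.52 with a standard error of 0.20 (1.44-fold; limma unadjusted p 0.0354, adjusted p 0.999). A second probe set overlapped between groups and differed by 0.49, and the other one read 7.74, 8.19 and 7.43 in Sox2cKO, against 7.91, 7.59 and 7.83 in CTRL, with a difference of 0.01. The difference of the chosen probe set was 0.33 without CTRL replicate 3 and 0.22 without both arrays numbered 3.

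Scores of fibroblast and pericyte markers, as the mean log2 deviation from each gene's mean over the 6 arrays, were -0.05, 0.18 and 1.44 in Sox2cKO, against -0.31, -0.24 and -1.02 in CTRL. Sox2cKO replicate 3 thus had the highest score and the highest Pdk1 and Gapdhs, and CTRL replicate 3 had the lowest score and the lowest Pdk1. Other arrays departed from this order. The lowest Gapdhs was in CTRL replicate 2 (6.24), and Sox2cKO replicate 2, with a higher score than Sox2cKO replicate 1, had the lowest Pdk1 of its group (9.62). Without both arrays numbered 3 Gapdhs differed by 0.65. The part of these cells in the values of Pdk1 and Gapdhs was not tested.

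**Figure D3:**
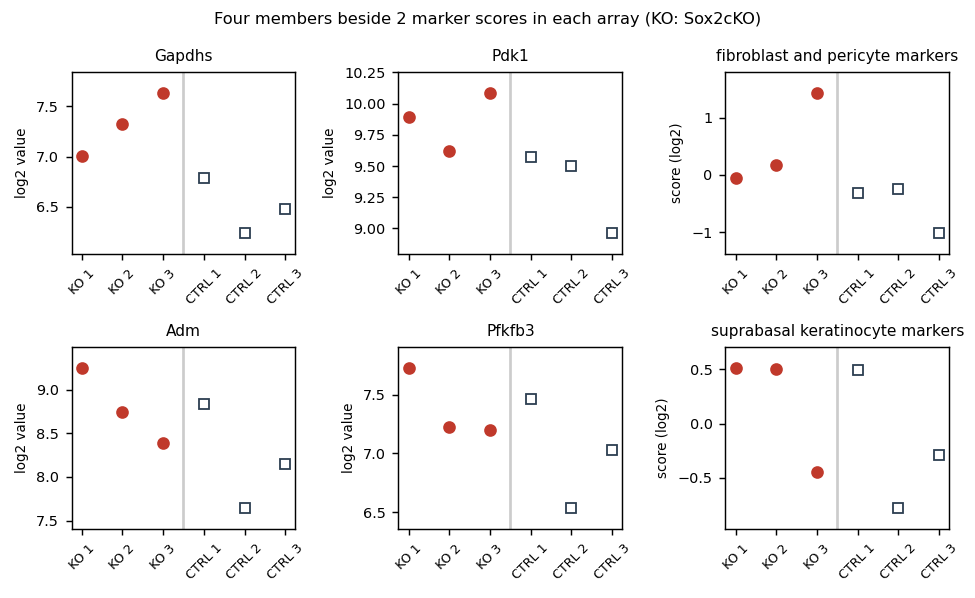
Log2 values of Gapdhs, Pdk1, Adm and Pfkfb3 in each array beside the scores of fibroblast and of suprabasal keratinocyte markers, with Sox2cKO arrays (KO) as filled circles and CTRL arrays as open squares. Array KO 3 is highest for the fibroblast score, Gapdhs and Pdk1, while KO 1, KO 2 and CTRL 1 share a high suprabasal score, of which KO 1 and CTRL 1 are also the highest for Adm and Pfkfb3 and KO 2 is not.

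Among the HIF genes, Hif1a, the alpha subunit of HIF-1, gave 12.49, 12.56 and 12.62 in Sox2cKO, against 12.51, 12.58 and 12.63 in CTRL. The 2 groups nearly coincided, with a difference of -0.01 and a 95% interval of -0.28 to 0.25. Of its 3 other tested probe sets, a dim one read 5.10, 5.36 and 4.78 in Sox2cKO, against 5.34, 5.80 and 5.68 in CTRL. Its groups overlapped, with a difference of -0.53 (limma unadjusted p 0.0277 in a fit of all tested probe sets). The others differed by -0.09 and 0.08. Epas1, which encodes HIF-2 alpha, read 10.13, 9.84 and 9.70 in Sox2cKO, against 9.84, 9.47 and 9.95 in CTRL (difference 0.14, standard error 0.18). The prolyl hydroxylase genes Egln1 (PHD2) and Egln3 (PHD3), which are themselves induced by HIF, differed by -0.03 and -0.11. Egln3 read 9.52, 10.58 and 9.86 in Sox2cKO, against 10.13, 10.31 and 9.87 in CTRL, so Sox2cKO held both its highest and its lowest array.

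Of the 10 hypoxia targets tested, 4 were higher and 6 lower in Sox2cKO, with a median difference of -0.06 and 0 past the test. Car9 and Car12 encode membrane carbonic anhydrases that handle acid outside the cell. Car9 read 6.67, 7.63 and 7.13 in Sox2cKO, against 7.44, 7.88 and 6.66 in CTRL. Both groups spanned about the same range, the difference was -0.19, and its 95% interval of -1.01 to 0.64 was too wide to bound a 1.5-fold change. Car12 differed by 0.01 (11.15 ± 0.51 in Sox2cKO and 11.14 ± 0.12 in CTRL). Bnip3, a mitophagy receptor gene, read 9.16, 10.49 and 9.35 in Sox2cKO, against 10.04, 9.95 and 9.35 in CTRL. One Sox2cKO array was the highest of the 6 and another the lowest, for a difference of -0.12 with a standard error of 0.36.

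P4ha1 and P4ha2 encode collagen prolyl 4-hydroxylase subunits. P4ha1 read 9.06, 8.86 and 8.80 in Sox2cKO, against 9.18, 8.97 and 8.87 in CTRL (difference -0.10, standard error 0.14), and P4ha2 also differed by -0.10. For P4ha1 the second tested probe set pointed the other way, at 0.47. It read 6.68, 6.20 and 6.01 in Sox2cKO, against 6.58, 5.53 and 5.35 in CTRL, and was higher in each same-numbered pair. Kdm3a, a histone H3K9 demethylase gene, read 9.74, 9.72 and 9.19 in Sox2cKO, against 9.75, 9.25 and 9.16 in CTRL (difference 0.16). Its arrays fell into a high and a low level in both groups. Ndrg1, a stress and differentiation gene of epithelia, read 12.24, 11.39 and 11.92 in Sox2cKO, against 12.005, 11.21 and 11.64 in CTRL. The groups overlapped and differed by 0.23 with a standard error of 0.27, its 4 other tested probe sets gave 0.27 to 0.39, and the Sox2cKO array was higher in each of the 3 same-numbered pairs. Leaving out single arrays moved its difference between 0.03 (without CTRL replicate 2) and 0.46 (without Sox2cKO replicate 2). With the Xist covariate it was -0.16.

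Adm, which encodes the vasodilator peptide adrenomedullin, had the largest difference among the targets. It read 9.25, 8.74 and 8.39 in Sox2cKO, against 8.84, 7.64 and 8.15 in CTRL. CTRL replicate 1 lay among the Sox2cKO arrays, so the groups overlapped. The difference was 0.59 with a standard error of 0.33 (1.502-fold; limma unadjusted p 0.120, adjusted p 0.999), and its other tested probe set also gave 0.59. It was 0.30 without CTRL replicate 2 and 0.90 without CTRL replicate 1. CTRL replicate 1 was the only control with low Xist, as in all 3 Sox2cKO arrays. Set against this control alone by the Xist covariate, Adm differed by -0.04. The part of the Xist pattern in the difference was not tested. Scores of suprabasal keratinocyte markers were 0.51, 0.50 and -0.45 in Sox2cKO, against 0.49, -0.78 and -0.29 in CTRL. CTRL replicate 2 was thus the lowest of the 6 arrays in this score, in Adm and in Pfkfb3, and the part of these cells in the values was not tested. Angptl4, of an inhibitor of lipoprotein lipase, averaged 7.997 ± 0.44 in Sox2cKO and 8.07 ± 0.30 in CTRL.

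For 9 of the 10 hypoxia targets the within-group standard deviation exceeded the difference between the groups in size, the exception being Adm. This spread leaves the same-numbered pairs out. In those pairs the chosen probe set of Ndrg1 differed by 0.24, 0.18 and 0.27 and that of P4ha1 by -0.12, -0.11 and -0.08. The other tested probe set of P4ha1 was higher in Sox2cKO in every pair. Of the 10 targets, 2 were higher and 1 lower in every pair, against 12.1% and 12.7% of all genes. CTRL replicate 1 was the highest control in 9 of 10 targets (the exception was Car9), against 33.1% of all genes. Sox2cKO replicate 3 was the lowest of its group in 6 of 10 and CTRL replicate 3 in 6 of 10, against 35.1% and 37.7% of all genes. Sox2cKO replicate 2 was the highest of its group in 6 targets, which were Car9, Car12, Bnip3, Ankrd37, P4ha2 and Angptl4, against 42.2% of all genes. The other 4 (Ndrg1, P4ha1, Kdm3a and Adm) were highest in Sox2cKO replicate 1. Ankrd37, an ankyrin repeat gene used as a marker of hypoxia, read 6.18, 7.13 and 6.01 in Sox2cKO, against 6.60, 6.59 and 6.26 in CTRL. P4ha2 was likewise highest in Sox2cKO replicate 2, with 7.65, 8.25 and 7.72 in Sox2cKO and 8.14, 8.02 and 7.76 in CTRL. In Bnip3, Ankrd37, P4ha2 and Egln3, Sox2cKO replicate 2 was the highest of the 6 arrays, and CTRL replicates 1 and 2 lay above CTRL replicate 3. These genes were singled out after their values were seen.

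**Figure D4:**
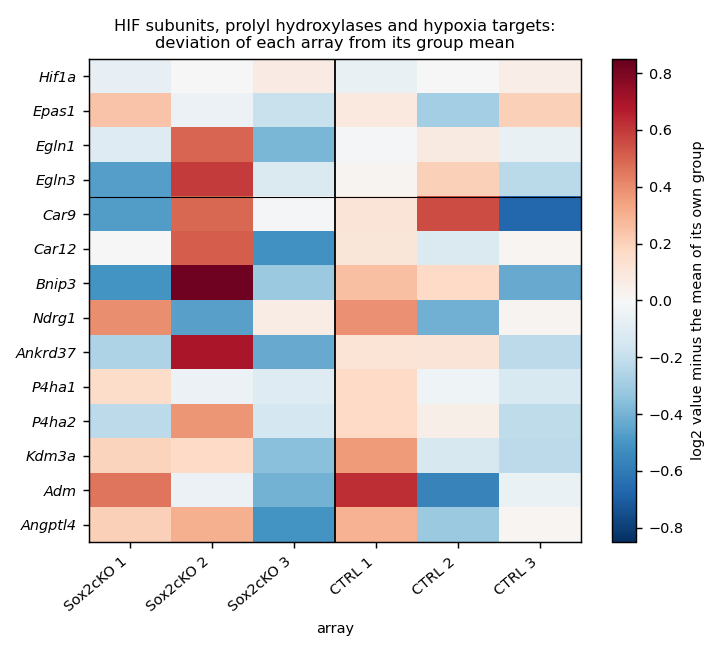
Log2 value of each HIF, prolyl hydroxylase and hypoxia target gene in each array minus the mean of its own group, red above and blue below, with Sox2cKO arrays on the left and CTRL arrays on the right. Bnip3, Ankrd37, P4ha2 and Egln3 are red in Sox2cKO 2 and blue in Sox2cKO 1 and 3, while Adm and Ndrg1 are red in Sox2cKO 1 and CTRL 1, and Hif1a stays within 0.07 of its group mean.

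HIF binds the short cores ACGTG and GCGTG, so these letters were sought on both strands in RefSeq promoter windows of 300 bases (250 before to 50 after a gene's start, build GRCm38.p6). Windows were found for 33 of the 38 genes, and 29 of the 33 held at least 1 core, against 46.7% of all genes with a window. Per window the counts were 37 of 49 (75.5%) and 43.8% of all windows. Both cores hold a CG, and the members' windows had a median of 20 CG pairs against 7 in all windows, so the share is a description and the part of CG content in it was not tested. Promoters of 4 genes are shown for hypoxia targets that varied together over the arrays or mark hypoxia, and of 2 genes whose groups did not overlap. Capitals mark the cores on either strand, with overlapping cores joined (a CACGTG is a core on each strand), and where the table holds 2 windows of a gene the outer one is given, which need not be the gene's outermost annotated start.
Bnip3 (chr7:138909457-138909756, minus strand): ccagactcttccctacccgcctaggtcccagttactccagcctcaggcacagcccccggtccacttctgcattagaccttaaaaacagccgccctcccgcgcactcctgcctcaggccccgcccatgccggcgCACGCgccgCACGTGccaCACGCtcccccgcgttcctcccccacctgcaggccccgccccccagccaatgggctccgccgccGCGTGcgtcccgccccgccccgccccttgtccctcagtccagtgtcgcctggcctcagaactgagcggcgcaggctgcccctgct
Ankrd37 (chr8:45999801-46000100, minus strand): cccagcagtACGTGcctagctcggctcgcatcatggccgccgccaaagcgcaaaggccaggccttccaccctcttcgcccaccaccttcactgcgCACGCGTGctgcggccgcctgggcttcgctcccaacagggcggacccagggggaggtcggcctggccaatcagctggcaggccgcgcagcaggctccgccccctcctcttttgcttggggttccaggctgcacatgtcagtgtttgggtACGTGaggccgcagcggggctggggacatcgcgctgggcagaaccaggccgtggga
P4ha2 (chr11:54100674-54100973, plus strand): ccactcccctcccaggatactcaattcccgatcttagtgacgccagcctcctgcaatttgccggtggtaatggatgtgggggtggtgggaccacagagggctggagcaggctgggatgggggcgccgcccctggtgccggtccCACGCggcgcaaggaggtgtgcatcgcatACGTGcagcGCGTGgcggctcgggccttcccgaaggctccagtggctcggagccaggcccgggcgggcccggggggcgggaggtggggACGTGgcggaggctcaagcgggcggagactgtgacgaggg
Car9 (chr4:43506776-43507075, plus strand): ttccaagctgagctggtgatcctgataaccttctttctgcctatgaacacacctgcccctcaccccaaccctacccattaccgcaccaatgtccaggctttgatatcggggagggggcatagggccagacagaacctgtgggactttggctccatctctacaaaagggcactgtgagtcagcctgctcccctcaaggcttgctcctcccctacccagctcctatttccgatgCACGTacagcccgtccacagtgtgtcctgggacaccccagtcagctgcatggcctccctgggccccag
Pdk1 (chr2:71872974-71873273, plus strand): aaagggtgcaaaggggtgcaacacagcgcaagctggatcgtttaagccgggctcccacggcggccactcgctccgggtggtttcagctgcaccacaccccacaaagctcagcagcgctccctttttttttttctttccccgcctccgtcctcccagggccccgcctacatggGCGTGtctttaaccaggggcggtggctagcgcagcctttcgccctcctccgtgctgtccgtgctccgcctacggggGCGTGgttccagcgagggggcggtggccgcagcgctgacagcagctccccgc
Gapdhs (chr7:30743632-30743931, minus strand): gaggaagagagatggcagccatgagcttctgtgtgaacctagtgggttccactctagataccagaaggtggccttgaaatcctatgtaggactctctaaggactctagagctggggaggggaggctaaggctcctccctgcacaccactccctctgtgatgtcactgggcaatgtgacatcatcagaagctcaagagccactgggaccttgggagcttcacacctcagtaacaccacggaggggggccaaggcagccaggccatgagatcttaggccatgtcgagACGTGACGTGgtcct
Bnip3 held 4 such runs, Ankrd37 3, P4ha2 4, Car9 1, Pdk1 2 and Gapdhs 2. A match is not a binding site, and Gapdhs and Pdk1 each had a second window that is not shown.

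Other genes of both pathways were counted in the same fit. Of 37 further symbols of glycolysis, pyruvate and glycogen handling, 30 were tested, 15 were higher and 15 lower, and 0 passed the limma test. The smallest unadjusted p values belonged to Gbe1, of the glycogen branching enzyme, to the urate and hexose transporter gene Slc2a9 and to Slc16a7, which encodes the pyruvate transporter MCT2. Gbe1 read 7.34, 7.04 and 7.74 in Sox2cKO, against 7.17, 6.51 and 6.64 in CTRL (difference 0.60, limma adjusted p 0.999). Slc2a9 and Slc16a7 differed by 0.56 and -0.44, and all 3 genes overlapped between groups. Slc16a7 was dim, below the array's 40th percentile in Sox2cKO replicates 1 and 3 (4.77 and 4.27) and CTRL replicate 3 (4.91), so the size of its difference is uncertain.

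Of 46 further symbols of the hypoxia response, 40 were tested, 25 were higher and 15 lower, with a median difference of 0.04 and 0 past the test. Lox, which encodes a collagen cross-linking oxidase also made by fibroblasts, read 5.603, 5.40 and 5.95 in Sox2cKO, against 5.27, 4.95 and 4.76 in CTRL. Its groups did not overlap (difference 0.66, standard error 0.19, limma adjusted p 0.999), and its highest and lowest arrays were those of the highest and lowest fibroblast score. The gene was dim, and its value in CTRL replicate 3 lay below that array's 40th percentile (4.94), so the size of the difference is uncertain. The growth factor gene Tgfb3 differed by -0.59 and the cell cycle inhibitor gene Cdkn1a by 0.40, and both overlapped between groups.

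Several members could be read more than once. Of the 34 genes, 19 had 1 or more further tested probe sets, 35 in all, and 20 of these 35 pointed the same way as the chosen one. None of the 35 had groups that did not overlap. All further sets of Ndrg1, Adm and Ldhb had the sign of the chosen one, while for Pfkp the chosen set differed by -0.09 and the other sets by 0.43 and 0.12. In the 3 same-numbered pairs 5 of the 34 genes were higher in Sox2cKO in every pair (Pfkfb3, Gapdhs, Pdk1, Ndrg1 and Adm), against 12.1% of all genes. A further 2 were lower in every pair, Hif1a by at most 0.02 and P4ha1 by 0.08 to 0.12, against 12.7% of all genes. These pair counts are of the chosen probe sets alone. All other tested sets of Ndrg1 and Adm were also higher in every pair. The other set of P4ha1 was higher and that of Pfkfb3 lower in every pair, and the other sets of Pdk1 and Hif1a were not all of one direction.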

How the data were processed

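RNA of 3 Sox2cKO and 3 CTRL samples was measured on Affymetrix Mouse 430 2.0 arrays. The authors deposited a table of normalized values taken as log2 from their range, and R 2.14.0 was used per the submitters' processing notes. Background correction, summarising method and normalization are not given in the sources used here. Low values flatten towards background, which understates differences of dim genes, and the number of arrays limits the precision.

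Of 45037 mouse probe sets, 34945 carried 1 gene symbol, 932 several and 9160 none here. Dim probe sets were dropped: 3 or more of the 6 arrays had to exceed their own 40th percentile. Differences (Sox2cKO minus CTRL) came from a limma fit (version 3.58.1, R 4.3.3; moderated by eBayes, two-sided, threshold 0.05 after Benjamini-Hochberg over all 13222 genes), and intervals of 95% are from the same fit, per gene and not adjusted. The fit was tested on simulated data with 200 changed genes. At a log2 change of 1 it called 113 of the 200 (56.5%), and at a log2 change of 2 it called 182 (91%). The simulated arrays were independent, with no pairs and no Xist pattern, so these shares need not hold for the real arrays. Members and lists were chosen with earlier results of these data known. Values per array were given for Sox2, 8 preset members, members not overlapping or at least 1.5-fold apart, and the 12 of smallest p. Ankrd37, P4ha2, Egln3, the dim Hif1a probe set and the control probe sets were added after their values were seen. Arrays of the same number deviated together (correlation across genes 0.29, 0.21 and 0.21), each over 0.1. For arrays of unlike number the correlations lay between -0.33 and 0.06. On this ground the numbers were read as pairs, which the labels do not state, and what the arrays of a number share was not tested. The limma fit, its intervals and the permutation test leave the pairs out, and the replicate block is an alternative. Alternatives were a replicate block, other filters, an added offset of 16, quantile normalization, trended and robust moderation, mean probe sets, an Xist covariate and each array left out.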

Additional observations from a re-analysis of the deposited data

How the results depend on the processing

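No member passed under any of the 15 alternatives. The role groups' medians near 0 had no stable sign over them: -0.24 (without Sox2cKO replicate 2) to 0.17 (without Sox2cKO replicate 3) in hypoxia targets, -0.15 to 0.06 in HIF and hydroxylase genes, -0.08 to 0.0448 in transporters with Pdk1 and -0.04 to 0.0223 in enzymes. Over all genes 0 passed, except 5 without CTRL replicate 1 (Sox2, Xist, Eif2s3y, Kdm5d and Uty; range 0 to 5 over arrays left out) and 1 with the Xist covariate (Ostf1), which sets Sox2cKO against CTRL replicate 1 alone. With the replicate block 0 members and 0 genes passed, so pairing changed no call. In that fit 656 genes in place of 354 had an unadjusted limma p under 0.05, as did 3 members (Gapdhs, Adm and Pfkfb3) in place of 2. Pairing did change the precision of some genes. The standard error went from 0.33 to 0.19 for Adm, 0.26 to 0.14 for Pfkfb3 and 0.27 to 0.10 for Ndrg1. It did not shrink for Gapdhs (0.207 to 0.214) or Pdk1 (0.203 to 0.217). Gapdhs (0.53 to 0.97) and Pdk1 (0.22 to 0.64) kept their direction throughout. Their groups did not overlap, so neither leaving out arrays nor the Xist covariate could have reversed it. The replicate block does not move a difference either, so their steady direction adds no support. With the Xist covariate several differences changed sign: Adm -0.0390, Pfkfb3 -0.0782, Pkm -0.0491, Ndrg1 -0.16, Kdm3a -0.20, Ldha 0.0056, Slc2a1 0.0427 and Hif1a 0.0461. With the mean of probe sets Pgk1 was at 0.0223 and P4ha1 at 0.19, and without both arrays numbered 3, chosen after seeing the data, Hk2 was at 0.0457 and Slc2a3 at 0.0042. Leaving out single arrays gave Bnip3 -0.53 to 0.14, Car9 -0.52 to 0.0906, Epas1 -0.0071 to 0.24, Hif1a -0.0493 to 0.0193, Hk2 -0.18 to 0.11, Pfkl -0.0097 to 0.49, Pgk1 -0.0325 to 0.0212, Slc2a1 -0.11 to 0.0448 and Slc2a3 -0.58 to 0.0284. With the Xist covariate each difference is the Sox2cKO mean minus the value of CTRL replicate 1, the only control with low Xist. Why the arrays within a group differ was not tested.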
